A study of Mus musculus with 10 samples.

Results

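The regions described here are peaks of accessible chromatin in regulatory T cells (Tregs) whose counts were higher without the lipid kinase Vps34 in spleen and in lung alike. They were chosen on chromosomes 1 to 19 from CPM, the counts of a peak scaled to the total of its library. In each tissue every Vps34-deficient library had to lie above every control library, and the deficient mean had to be at least 1.5 times the control mean and at least 3 CPM. This left 697 of 94486 peaks on these chromosomes and of 97385 in all. The rule was met by 2623 peaks in spleen and by 6130 in lung, so the 697 were 26.6% of the first list and 11.4% of the second. As the genotype difference in both tissues selected the members, that difference is given below as a description, and edgeR calls of it are counts that support nothing.

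ATAC-seq, in which the transposase Tn5 inserts adaptors into open chromatin, was run on CD4+Foxp3-YFP+TCRb+ Tregs sorted from 10-day-old mice. All mice carried Cre recombinase with a yellow fluorescent reporter under control of the Treg gene Foxp3. The Vps34-deficient mice had both copies of Pik3c3, which encodes Vps34, flanked by loxP sites (fl/fl), and the controls had at most 1 such copy (+/+ or +/fl). The groups held 2 control and 4 Vps34-deficient libraries of spleen and 2 libraries of each genotype of lung. These groups follow the labels, whereas in the study's own description the larger spleen group is the control. Cells that lose Foxp3 leave the sort, and nothing in the labels says whether a spleen and a lung library came from the same mouse, so p-values measure the spread between these libraries. In bulk cells, fewer cells with an open site and a less open site in each cell cannot be told apart.

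Vps34 makes phosphatidylinositol 3-phosphate on endosomes and autophagosomes, and so acts in vesicle traffic and autophagy. Tregs restrain other immune cells. Their resting forms keep genes such as Lef1, Foxp1 and Bach2 active, while effector forms in tissues express receptors, cytokines and factors such as Icos, Il10 and Maf. Most sites that differ between such states are enhancers in introns or between genes, bound by factors that recognise short stretches of DNA.

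Library totals ran from 9405823 to 22439699 counts, so that 1 CPM stood for 9.41 to 22.4 counts, and no member had 3 counts or fewer in every control library of a tissue. The summed CPM over promoter peaks of 6 Treg genes was 237 to 256 in spleen controls, 222 to 262 in deficient spleen, 199 to 249 in lung controls and 190 to 219 in deficient lung, and all 6 genes had such a peak. The 7 lists of other cell types summed to 22.3 to 67.6 CPM in every library. The myeloid list was at 42.6 to 44.7 CPM in spleen controls and 30.5 to 37.5 in deficient spleen, and at 49.1 to 54.3 and 31.8 to 32.6 in lung, so it was lower where the members were higher. Other lists went either way. The fibroblast list was lower in deficient lung (24.6 to 29.2 CPM) than in lung controls (30.3 to 31.9), and the lung epithelium list was lower in deficient spleen (29.9 to 34.9) than in spleen controls (35.1 to 37.0). The erythroid list was at 22.3 to 27.2 CPM in lung controls and 29.2 to 33.1 in deficient lung, and the CD8 and NK cell list at 40.4 to 40.6 and 44.8 to 49.1, so these were higher, as the members were, while the groups of both overlapped in spleen. The part of these cells in the members' values was not tested. The promoters of Csf1r, Lyz2, Adgre1 and Fcgr1 had no peak. Chromosome Y peaks summed to 56.9 to 67.6 CPM in 5 libraries but only to 7.03 to 21.4 CPM in 5 others, and every group was split evenly between these kinds.

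The members fell into 2 classes by width. Of the 697, 316 (45.3%) were at most 220 bp wide and are called narrow, and 381 were wider and are called broad. The boundary was set after the values were seen, and 13 members were 216 to 220 bp and 8 were wider than that by at most 10 bp. Peaks of at most 220 bp made up 23.3% of all peaks on these chromosomes, 7.26% of the 44526 peaks whose deficient mean passed the floor of 3 CPM in both tissues, and 1.94% of the 1445 peaks that met the mirror of the rule, lower without Vps34 in both tissues. The libraries themselves differed in this respect. Narrow peaks took 4.1% and 5.01% of the counts of the spleen controls, 6.83%, 6.24%, 5.13% and 6.81% in deficient spleen, 11.9% and 7.48% for lung controls, then 12.4% and 13.5% in deficient lung. Every deficient library lay above every control of its tissue in this share, and lung control 1 stood far above lung control 2.

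The sequences that follow show what these regions are made of. They are taken from the RefSeq GRCm38.p6 assembly, plus strand, 5′ to 3′, and each long stretch is the central 200 bases of a peak. First come the members with the largest change, by the smaller of the spleen and lung log2 ratios, and the Psap promoter member. Capitals mark letters of the 20 motifs searched on both strands, which are listed with the motif shares.
1700025G04Rik intron, chr1:151974540-151974739: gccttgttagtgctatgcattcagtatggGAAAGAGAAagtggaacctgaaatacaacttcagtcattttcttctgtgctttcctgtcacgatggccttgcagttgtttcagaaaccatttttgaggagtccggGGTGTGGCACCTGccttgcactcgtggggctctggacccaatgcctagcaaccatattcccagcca
4930474N05Rik, intergenic, chr14:36316954-36317153: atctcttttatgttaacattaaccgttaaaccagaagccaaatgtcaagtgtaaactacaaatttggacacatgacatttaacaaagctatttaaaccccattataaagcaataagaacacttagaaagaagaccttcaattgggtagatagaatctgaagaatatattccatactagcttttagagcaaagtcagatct
Gmfb intron at the promoter, chr14:46818798-46818997: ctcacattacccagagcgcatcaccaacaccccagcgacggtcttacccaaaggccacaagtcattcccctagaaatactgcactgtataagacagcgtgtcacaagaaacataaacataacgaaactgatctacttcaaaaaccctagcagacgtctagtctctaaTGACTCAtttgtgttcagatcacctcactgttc
Lmln intron, chr16:33069185-33069384: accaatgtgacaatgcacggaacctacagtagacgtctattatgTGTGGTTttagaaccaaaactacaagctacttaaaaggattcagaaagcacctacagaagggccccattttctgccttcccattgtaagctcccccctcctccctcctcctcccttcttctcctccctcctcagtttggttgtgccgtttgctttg
4922502D21Rik, intergenic, chr6:129312641-129312840: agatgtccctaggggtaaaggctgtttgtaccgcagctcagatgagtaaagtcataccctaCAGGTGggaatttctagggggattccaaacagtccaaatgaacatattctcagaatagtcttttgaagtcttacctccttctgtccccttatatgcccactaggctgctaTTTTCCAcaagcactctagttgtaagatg
Slc35g1, intergenic, narrow, chr19:38406417-38406616: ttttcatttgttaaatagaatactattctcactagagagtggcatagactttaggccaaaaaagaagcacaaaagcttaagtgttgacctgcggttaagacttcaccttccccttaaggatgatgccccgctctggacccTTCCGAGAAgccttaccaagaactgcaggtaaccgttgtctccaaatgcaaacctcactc
Psap intron at the promoter, chr10:60284901-60285100: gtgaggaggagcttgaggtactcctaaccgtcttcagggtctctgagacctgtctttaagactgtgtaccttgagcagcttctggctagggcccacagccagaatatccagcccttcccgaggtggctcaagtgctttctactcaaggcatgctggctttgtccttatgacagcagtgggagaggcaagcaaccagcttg

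The next 3 belong to narrow members with the highest counts of all. Capitals mark the palindrome TGATCA, which was noticed in these windows and counted afterwards.
Plcl1 intron, chr1:55626029-55626228: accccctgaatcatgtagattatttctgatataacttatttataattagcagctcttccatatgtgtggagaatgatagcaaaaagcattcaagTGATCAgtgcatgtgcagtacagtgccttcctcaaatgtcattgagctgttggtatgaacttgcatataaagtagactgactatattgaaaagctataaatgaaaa
Near Vwc2l, in an intron of Spag16, chr1:70684554-70684753: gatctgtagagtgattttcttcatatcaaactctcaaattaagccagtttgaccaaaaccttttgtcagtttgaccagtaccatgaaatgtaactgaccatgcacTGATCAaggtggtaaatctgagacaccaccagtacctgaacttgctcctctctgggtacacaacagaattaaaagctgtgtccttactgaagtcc
Near Olfr1497, intergenic, chr19:13791942-13792141: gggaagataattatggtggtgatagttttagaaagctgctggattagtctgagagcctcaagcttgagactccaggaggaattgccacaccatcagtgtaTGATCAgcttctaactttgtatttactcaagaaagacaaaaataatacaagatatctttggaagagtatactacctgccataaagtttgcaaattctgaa

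The letters of TCF/LEF and IRF sites were in a larger share of broad members than of all peaks. Below are 4 stretches of each, from broad members high in the same order, with the motif in capitals and 15 bases on either side. A Foxp1 member with TCF/LEF letters that ranks above the Bcl2l11 one, chr6:99249629-99250010, is left out here and shown further below. The first 4 show the TCF/LEF letters.
Tg intron, chr15:66686707-66686743: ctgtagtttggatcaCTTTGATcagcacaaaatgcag
Eif2ak3 intron, chr6:70862818-70862854: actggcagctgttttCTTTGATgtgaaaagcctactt
Mllt3 intron, chr4:87859351-87859387: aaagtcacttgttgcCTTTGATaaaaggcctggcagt
Bcl2l11, in an intron of Acoxl, chr2:128088254-128088290: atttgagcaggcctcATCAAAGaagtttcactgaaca
The other 4 show the IRF letters.
1700025G04Rik intron, chr1:151974554-151974592: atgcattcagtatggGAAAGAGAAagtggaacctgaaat
Iqsec1 intron, chr6:90673355-90673393: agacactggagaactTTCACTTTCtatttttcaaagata
Mosmo intron, chr7:120695803-120695841: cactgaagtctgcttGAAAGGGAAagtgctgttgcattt
Adgrl2, in a non-coding gene, chr3:149638503-149638541: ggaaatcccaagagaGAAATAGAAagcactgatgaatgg

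To see how the level of the members ran over the libraries, the median CPM per peak was taken in each class. In spleen, the medians of the broad members were 3.65 and 3.31 CPM for the controls and 6.12, 5.63, 5.69 and 6.17 CPM without Vps34. In lung the same peaks had 2.76 and 2.68 CPM in controls and 5.2 and 5.08 CPM without Vps34. Libraries of a group lay close to each other, and the share of counts in broad members was 0.17% ± 0.00963 (SD, n = 2) and 0.286% ± 0.0113 (n = 4) in spleen, and 0.138% ± 0.00492 and 0.261% ± 0.00566 (n = 2 each) in lung. The medians of the narrow members were 2.58 and 3.1 CPM in spleen controls, and 5.42, 4.89, 4.06 and 5.6 CPM in deficient spleen. In lung they had 9.36 and 5.86 CPM in controls and 12.4 and 13.5 CPM without Vps34. Narrow members were thus higher in lung than in spleen in either genotype, and their lung controls differed from each other by more than the broad members' did.

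**Figure D1:**
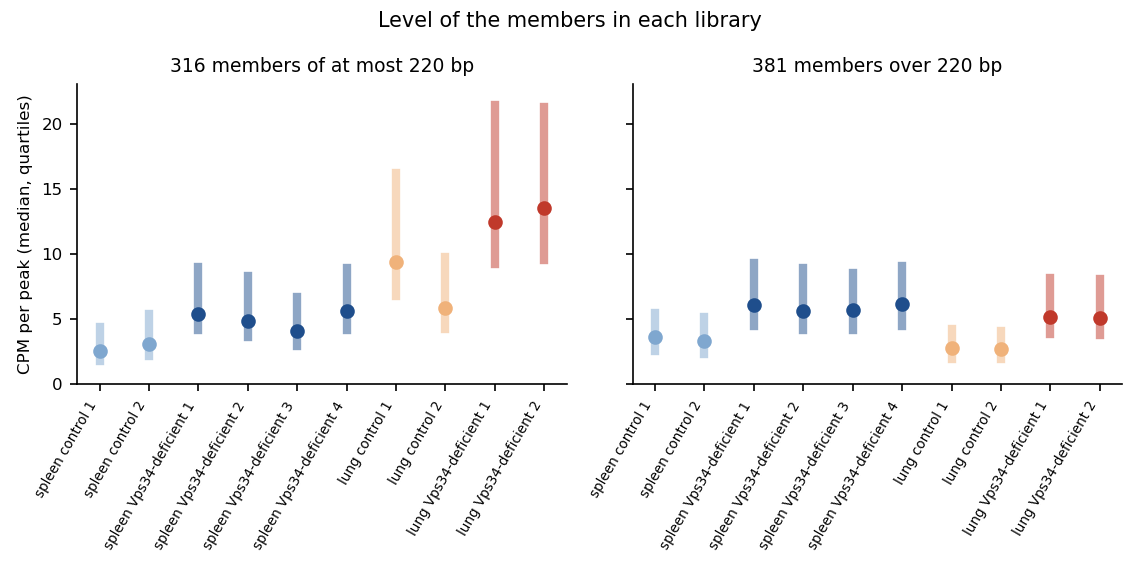
Median CPM per peak (points) and quartiles (bars) in each of the 10 libraries, for the 316 narrow members (left) and the 381 broad members (right). Broad members were at 2.68 to 3.65 CPM in controls of either tissue and at 5.08 to 6.17 CPM in deficient libraries, while narrow members ran from 2.58 CPM in spleen control 1 to 13.5 CPM in lung deficient 2.

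By group means, the median ratio of deficient to control over the broad members was 1.66 in spleen and 1.87 in lung, and the highest ratios were 4.12 and 6.75. Over the narrow members the medians were 1.74 and 1.62, with highest ratios of 3.3 and 2.87. By edgeR, the median log2 fold change of all members was 0.76 in spleen and 0.78 in lung. A peak was called where its Benjamini-Hochberg adjusted p was under 0.05 and its log2 fold change exceeded 0.5 in size. By this criterion edgeR called 107 members higher in deficient spleen, where 0.441% of all 97109 tested peaks were called higher, and 146 in deficient lung, where 1.22% were. These contrasts chose the members, so nothing is read from those counts.

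The narrow peaks with the highest counts shared 1 profile over the libraries. Of all narrow peaks on chromosomes 1 to 19, 540 had a mean of at least 20 CPM, and 38 of these were members. For each peak, log2(CPM + 0.5) was taken relative to its mean over the 10 libraries. The 540 peaks had median deviations of -1.02 and -0.60 in spleen controls, -0.09, -0.24, -0.64 and -0.08 in deficient spleen, 0.79 and 0.04 in lung controls, and 0.84 and 1.0 in deficient lung. The SD over peaks was only 0.0795 to 0.144 in a library, and 0.14 to 0.256 over the 12015 broad peaks of the same level. The 316 narrow members ran close to these values, at -1.08 and -0.81, then -0.07, -0.22, -0.51 and -0.06, then 0.69 and -0.02, and 1.04 and 1.11. They differed in the order of spleen control 2 and deficient spleen 3, which the rule holds apart in the members. Over the 540 peaks the ratio had a median of 1.47 in spleen, with 5th and 95th percentiles of 1.32 and 1.68, and 1.37 in lung, with percentiles of 1.26 and 1.57. Of those 540 peaks, 203 reached 1.5 in spleen and 81 in lung. The share of a library's counts in narrow peaks moved with these levels, and its part in the result was not tested.

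**Figure D2:**
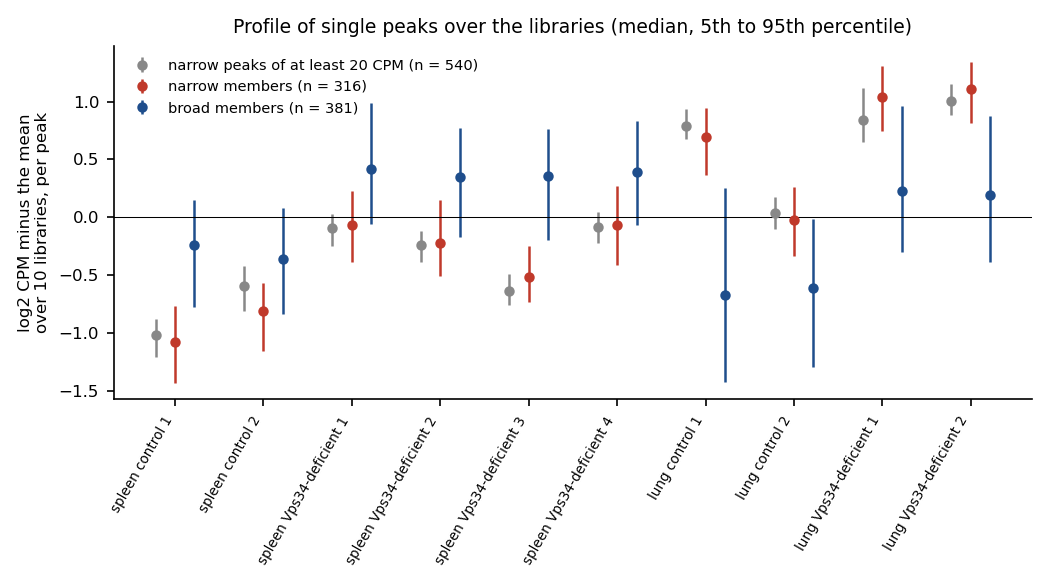
Log2(CPM + 0.5) of single peaks minus the mean over the 10 libraries, as the median (points) and the 5th to 95th percentile (bars), for the 540 narrow peaks of at least 20 CPM, the 316 narrow members and the 381 broad members. Both narrow sets were lowest in spleen control 1 and highest in lung deficient 2, whereas broad members were high in all 6 deficient libraries.

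The difference between lung and spleen took no part in the choice of the members and could be tested. In a fit of all 10 libraries with genotype as a covariate, edgeR called 345 of 697 members higher in lung, where 18.4% of all tested peaks were called, and 82 lower, where 6.51% were. The classes went apart. Of the 316 narrow members, 313 were called higher in lung and none lower, with a median log2 fold change of 1.44. Of the 381 broad members, 32 were called higher and 82 lower, with a median of -0.21, and for 254 the adjusted p did not pass 0.05. Among all 41295 broad peaks past the floor, 4.68% were called higher and 6.34% lower, and the broad members were above both backgrounds, with 8.4% called higher and 21.5% lower. Among all 3231 narrow peaks past the floor, 82.5% were called higher in lung, with a median of 1.32. Not all narrow peaks ran this way: 38 of the 3231 were called lower in lung, and the 281 of them that were 200 to 205 bp wide had a median log2 difference of -0.10 in CPM, against 1.24 in the 1186 of 206 to 210 bp. Since the narrow members ran close to the profile above, their calls are not independent of each other. Within control cells 335 members were called higher in lung (11.8% of all peaks) and 54 lower (3.53%), but without spleen control 1 these were 178 and 28 (3.21% and 1.66% of all peaks in that fit), and without lung control 1 they were 214 and 40 (5.19% and 3.38%). Within Vps34-deficient cells 341 were called higher (12.5%) and 47 lower (4.72%). The 47 became 18 without deficient lung 1 (2.7% of all peaks) and also without deficient lung 2 (2.18%), and 22 with the replicate number as a block (1.76%).

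With the narrow-peak share of each library as a covariate, a fit chosen after seeing the data, edgeR called no member higher in lung and 3 lower, and at an unadjusted p below 0.05 there were 22 higher and 40 lower. These were 3.16% and 5.74% of the members, beside 4.38% and 3.99% of all tested peaks in the same fit, where 0.0834% of all peaks were called higher and 0.033% lower. That share was 4.1% to 6.83% in spleen and 7.48% to 13.5% in lung, so it and the tissue can hardly be told apart in 10 libraries. The 3 narrow members not called were nearest to Osm, Ip6k1 and Xcl1, and 2 of them were 205 and 202 bp wide, at the lower end of the class. The Osm peak had a log2 fold change of -0.35 ± 0.26 (SE) and the Xcl1 peak -0.04 ± 0.24. These 3 are named because of their values.

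**Figure D3:**
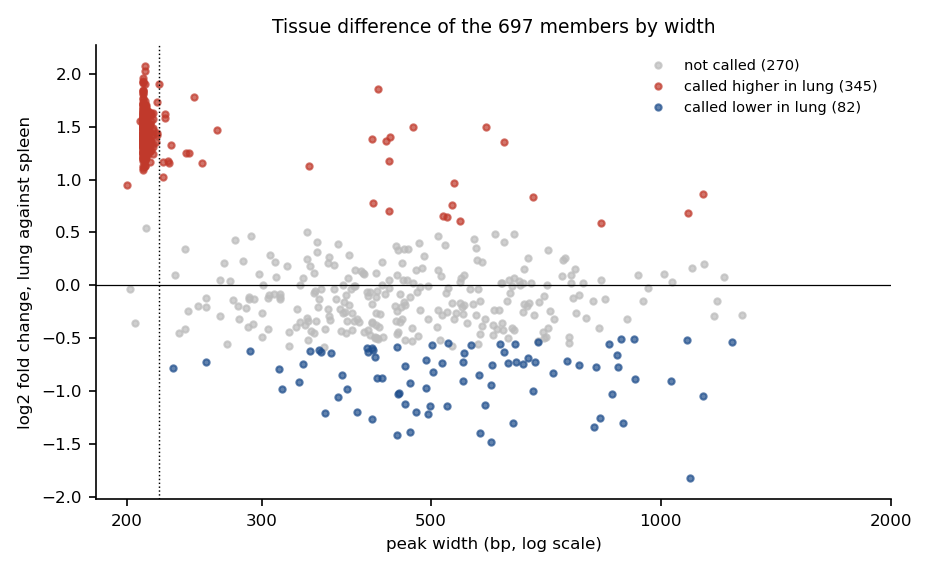
Log2 fold change of lung against spleen (edgeR, genotype as covariate) against peak width (log scale) for the 697 members, with the called members in red (345 higher in lung) and blue (82 lower). A dotted line marks 220 bp, left of which 313 of 316 members were called higher in lung.

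The members called lower in lung with the smallest p were broad and lay near Tmem192, Fam196a and Snx9. The peak 12.2 kb upstream of Tmem192, which encodes a lysosomal membrane protein (chr8:64934478-64935569), had 16.7 and 16 CPM in spleen controls, 27.4, 26.4, 24.3 and 28.3 in deficient spleen, 4.47 and 3.81 in lung controls and 8.61 and 6.35 in deficient lung. Every spleen library lay above every lung library, and the log2 fold change of lung against spleen was -1.82 ± 0.13 (SE, edgeR adjusted p = 3.11e-09). The peak in an intron of Dock1, nearest to the start of Fam196a (chr7:135002739-135003631), had -1.30 ± 0.14 (edgeR adjusted p = 1.99e-07). The peak 85.2 kb upstream of Snx9, a sorting nexin of endocytosis (chr17:5755837-5756477), had -1.30 ± 0.15 (edgeR adjusted p = 2.68e-07).

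The members called higher in lung with the smallest p were narrow, in introns of Ky, Lsamp and Plcl1. The Lsamp peak (chr16:41568186-41568401) had 20.1 and 22.6 CPM in spleen controls, 35.1, 36.1, 24.5 and 37.9 in deficient spleen, 66.1 and 41.6 in lung controls, and 83.2 and 90.8 in deficient lung. Its tissue difference was 1.42 ± 0.11 (SE, edgeR adjusted p = 6.05e-09). The Plcl1 peak, whose sequence is shown, had the highest level of all members, with 36.9 and 46.3, then 76.8, 69.1, 55.1 and 67, then 139 and 75.2, and 160 and 164 CPM in the same order. Deficient spleen 3 was the lowest deficient spleen library at both peaks. Lung control 1 lay between the lung control 2 value and the deficient values. The other members among the 4 with the highest counts were near Mro, Vwc2l and Olfr1497, and all 4 were narrow.

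Among the 10 members with the largest change, 8 were broad. The peak in an intron of 1700025G04Rik had 1.43 and 0.551 CPM in spleen controls, 4.87, 4.04, 3.79 and 3.59 in deficient spleen, 0.425 and 0.564 in lung controls, and 3.09 and 3.6 in deficient lung. Its mean was 4.12 times higher without Vps34 in spleen and 6.75 times higher in lung. The next by size was an intergenic peak on chromosome 14, 222 kb from the start of 4930474N05Rik, where the deficient libraries did not agree. It had 1.69 and 2.34 CPM in spleen controls, 12, 2.45, 11.1 and 3.3 in deficient spleen, 1.91 and 1.83 in lung controls, and 13.8 and 2.96 in deficient lung. The Gmfb promoter peak, also on chromosome 14, ran the same way, with 4.46 and 4.13, then 17.2, 6.85, 17.1 and 6.32, then 3.83 and 2.96, and 13.4 and 4.02 CPM. Gmfb encodes glia maturation factor beta, a regulator of actin. At these 2 peaks the deficient libraries low in chromosome Y counts were at least 1.9 times every other deficient library, which held at 3 peaks on chromosomes 1 to 19 and at no other member. The control low in chromosome Y counts was not high there (2.34 and 1.83 CPM, and 4.13 and 2.96 CPM). Sex is not in the labels, and its part in these values was not tested.

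Of the others among the 10, the intron peak of Lmln, a metallopeptidase gene, had 2.76 and 1.65 CPM in spleen controls against 6.54, 3.91, 5.73 and 7.61, and 1.06 and 4.37 CPM in lung controls against 7.96 and 5.93. The peak near 4922502D21Rik had 4.6 ± 0.705 (SD, n = 2) and 10.3 ± 1.81 CPM (n = 4) in spleen, and 4.52 ± 0.986 and 10 ± 2.17 CPM (n = 2 each) in lung. An intron peak of Chchd3, which encodes a subunit of the complex that shapes mitochondrial cristae, had means of 2.69 and 6.22 CPM in spleen controls and deficient spleen, and 1.34 and 3.27 CPM in lung. It was lower in lung, with a log2 difference of -0.88 ± 0.21 (SE, edgeR adjusted p = 0.00197). A peak 44.9 kb upstream of Tnfsf8, which encodes the ligand of CD30, had 2.5 and 3.31 CPM in spleen controls against 7.23, 7.95, 6.5 and 7.61, and 3.4 and 6.21 CPM in lung controls against 10.4 and 9.74. It was among the 32 broad members called higher in lung (0.64 ± 0.18, edgeR adjusted p = 0.00894), a call lost without lung control 2 (0.44, edgeR adjusted p = 0.0591). The narrow members of the 10 were near Slc35g1 and Cdkn2c, a cyclin-dependent kinase inhibitor gene, and both were called higher in lung (1.21 ± 0.19 and 1.72 ± 0.24). Neither call held with the narrow-peak share of each library as a covariate, where the Cdkn2c difference changed sign.

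Promoters held few members. By a distance of 1 kb from the peak's centre to a protein-coding start, 32 of 697 members (4.59%) lay at a promoter, against 17.1% of all peaks and 29.6% of the peaks past the floor. The share was 4.43% in narrow members and 4.58% in all narrow peaks, and 4.72% in broad members and 20.9% in all broad peaks. It was also low in peaks that met the rule in spleen alone (5.76%) or in lung alone (6.02%) and in the mirror peaks (5.47%). The median distance to a start was 30 kb for broad and 52 kb for narrow members, and 9.56 kb for peaks past the floor. It was 14401 bp for all broad and 34643.5 bp for all narrow peaks. Peaks of spleen alone, of lung alone and of the mirror rule had 30259, 30366 and 22809 bp. The Psap promoter peak had 3.65 and 3.44 CPM in spleen controls, 8.35, 7.58, 6.41 and 6.6 in deficient spleen, 2.55 and 3.25 in lung controls, and 7.47 and 5.72 in deficient lung. Psap encodes prosaposin, the precursor of the saposins that help lysosomal enzymes break down sphingolipids. Further promoter members were at Hsdl1, Gab1, which encodes an adaptor that recruits class I PI3K, Col9a2 and, among the narrow ones, Tomt. The Gab1 peak had 3.03 and 1.93 CPM in spleen controls against 7.23, 3.91, 4.69 and 5.89, and 5.95 and 3.81 CPM in lung controls against 8.45 and 9.53.

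The members were spread over 635 genes by nearest start, of which 582 had 1 member, 45 had 2 and 8 had 3 or more. Some lay side by side: 53 members, 40 of them broad, formed 28 neighbouring pairs within 50 kb. How many pairs a like number of other peaks would form was not counted. Trib2, a pseudokinase gene, had 4 of its 53 peaks among the members, but 3 of these were narrow. The adhesion receptor gene Adgrg1 had 3 of 13, all broad, and the ubiquitin ligase gene Znrf1 had 3 of 23. The splicing regulator gene Mbnl2 had 3 of 26 and the zinc transporter gene Slc39a11 3 of 45, all broad. The highest Adgrg1 member, 3.39 kb upstream of a start, had 12.7 and 12.6 CPM in spleen controls, 18.6, 14.8, 23.3 and 20.2 in deficient spleen, 6.17 and 8.18 in lung controls, and 13 and 9.31 in deficient lung. Of the 3 Adgrg1 members, 2 were called lower in lung.

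**Figure D4:**
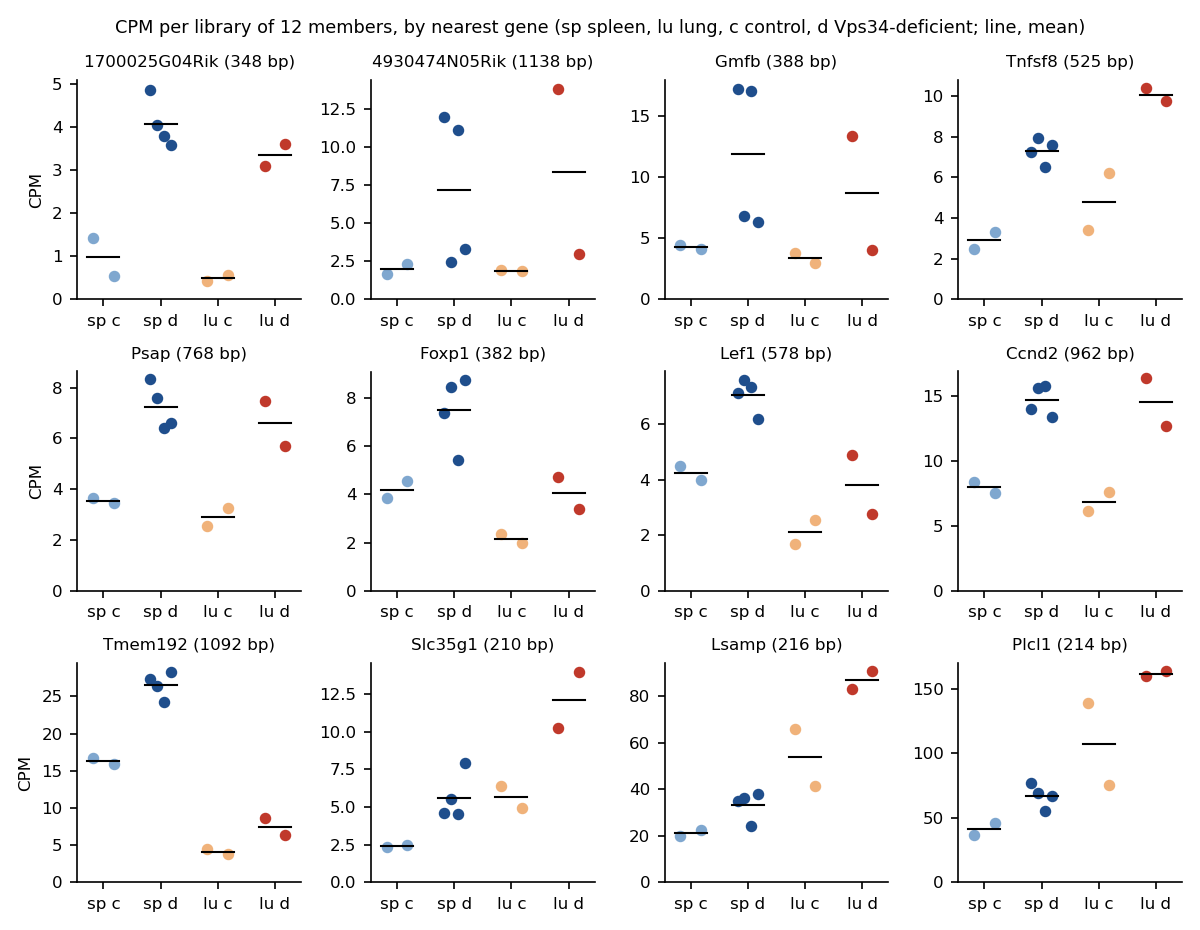
CPM in each library (points) and group means (lines) for 12 members named by the nearest gene, with the peak width in the title and axes from 0. The deficient libraries of the 4930474N05Rik and Gmfb peaks split into high and low ones, and the bottom right panels (Slc35g1, Lsamp and Plcl1) show narrow members, highest in lung.

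Genes of Treg states were looked at through lists of genes, each peak given to the nearest start. Over all genes, 0.738% of peaks were members, and 0.526% of broad peaks were broad members. Of 600 peaks at 16 resting Treg genes, 8 were members (1.33%), all broad, with 3 at Lef1, 3 at Foxp1 and 1 each at Bach2 and Bcl2. Of 522 peaks at 25 effector Treg genes, 1 was a member, a narrow peak 313 kb from Maf, while 41 (7.85%) met the mirror rule, which 1.53% of all peaks met. The resting genes had 6 peaks that met the mirror rule (1%). These are counts of few peaks, described with no test.

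Lef1 encodes a transcription factor that binds TCF/LEF sites, and Foxp1 a forkhead factor of quiescent T cells. The Lef1 intron peak 13.2 kb from the start (chr3:131125679-131126256) had 4.5 and 3.99 CPM in spleen controls, 7.09, 7.58, 7.31 and 6.17 in deficient spleen, 1.7 and 2.54 in lung controls, and 4.87 and 2.75 in deficient lung. It was lower in lung by edgeR (-0.84 ± 0.20 SE, adjusted p = 0.00262). The Foxp1 intron peak at chr6:99406097-99406547 had 5.79 and 6.89, then 7.93, 9.79, 10 and 11.2, then 1.06 and 1.98, and 4.22 and 4.45 CPM, and was lower in lung as well (-1.41 ± 0.21 SE, edgeR adjusted p = 9.92e-06). The Foxp1 peak at chr6:99249629-99250010, which holds TCF/LEF letters, had means of 4.19, 7.5, 2.16 and 4.05 CPM in spleen controls, deficient spleen, lung controls and deficient lung, and was called lower in lung (-0.84 ± 0.21, edgeR adjusted p = 0.00284). The third Foxp1 peak and the remaining Lef1 peaks had no called tissue difference. Their means were 1.51 to 2.32 times higher without Vps34 in spleen and 1.61 to 1.79 times in lung. The central bases of 3 of these peaks are given with the searched motifs in capitals.
Foxp1 intron, chr6:99249719-99249918: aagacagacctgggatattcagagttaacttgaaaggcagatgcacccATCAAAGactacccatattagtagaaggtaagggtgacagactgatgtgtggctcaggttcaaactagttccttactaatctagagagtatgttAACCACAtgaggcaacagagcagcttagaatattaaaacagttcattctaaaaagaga
Foxp1 intron, chr6:99406222-99406421: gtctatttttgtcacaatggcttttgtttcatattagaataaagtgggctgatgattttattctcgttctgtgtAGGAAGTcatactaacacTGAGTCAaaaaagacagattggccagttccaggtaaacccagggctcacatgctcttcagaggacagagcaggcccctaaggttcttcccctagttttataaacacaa
Lef1 intron, chr3:131125867-131126066: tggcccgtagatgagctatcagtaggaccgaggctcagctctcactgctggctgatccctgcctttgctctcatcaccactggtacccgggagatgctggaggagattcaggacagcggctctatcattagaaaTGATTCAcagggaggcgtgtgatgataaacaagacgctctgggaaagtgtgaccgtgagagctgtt

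Apoptosis genes had 3 members of 128 peaks, all at Bcl2l11, which encodes the death-promoting protein Bim, and 2 of them broad. Cell cycle genes had 1 of 139, a broad peak 119 kb from the cyclin gene Ccnd2 with 8.38 and 7.58 CPM in spleen controls, 14, 15.7, 15.8 and 13.4 in deficient spleen, 6.17 and 7.62 in lung controls, and 16.4 and 12.7 in deficient lung. T cell receptor signalling genes had 4 of 318, of which 2 were narrow, and 3 of the 4 lay at Nfatc1 and Nfatc2. Class I PI3K and Foxo genes had 3 of 347, at Pik3r1, which encodes the p85 regulatory subunit, and Foxo1. The larger Pik3r1 peak, 29.1 kb upstream, had means of 9.8, 15.5, 6.15 and 11 CPM in the order of groups above. Type 1 helper genes had 1 of 148, near Eomes, at means of 8.38, 13.1, 5.05 and 8.39 CPM. No member lay at the 163 peaks of the 24 genes listed for the Vps34 complex, autophagy and lysosomes, a list without Psap and Tmem192, or at the 50 peaks of interferon response genes. Over all genes 0.738% of peaks were members, so lists this short would hold few in any case. The shares were 2.34% at apoptosis, 0.719% at cell cycle and 1.26% at T cell receptor signalling genes. They were 0.865% at class I PI3K and Foxo genes and 0.676% at type 1 helper genes. No test was made.

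Both strands of the central 200 bases of each peak were searched for 20 motifs. These were TGANTCA for AP-1 factors, TGACGTCA for the cyclic AMP response element, GGGANTTCC for NF-kB, AGGAAGT for ETS factors, TGTGGTT for RUNX factors, CTTTGAT for TCF/LEF factors, TGTTTAC for Forkhead factors, CCACACC for KLF factors, GGGGCGG for the GC box, GAAANNGAA for IRF factors, TTCNNGGAA for STAT factors, AGATAAG for GATA factors, AGGTGTGA for T-box factors, CAGGTG for E-box factors, TGGAAAA for NFAT factors, GCGCATGC for NRF1, CCAATCA for NF-Y, GGTCAAAGG for nuclear receptors, GCGTGGG for Egr factors and the longer CTCF motif. A given stretch can count for more than 1 motif. The letters of TCF/LEF were in 39 of 381 broad members (10.2%), in 3.76% of the broad peaks past the floor, in 4.04% of all peaks and in 3.94% of the peaks that met the mirror rule. Those of IRF were in 64 broad members (16.8%), in 6.93% of broad peaks past the floor and in 7.64% of all peaks. Over all 697 members, narrow ones included, the shares were 7.32% for TCF/LEF and 13.5% for IRF letters. Peaks that met the rule in 1 tissue alone, of either width, also held them in larger shares than all peaks did. TCF/LEF letters were in 6.17% and IRF letters in 9.0% for lung alone, and in 4.67% and 10.2% for spleen alone. AP-1 letters were in 13.4% of broad members, 8.97% of broad peaks past the floor and 25.3% of the mirror peaks. ETS letters were in 6.3% of broad members and 12.8% of broad peaks past the floor, GC box letters in 2.89% and 13.7%, and Forkhead letters in 1 broad member (0.262%) and 2.59%. No broad member held the CTCF motif, which 3.96% of broad peaks past the floor held. Low shares of CTCF and GC box letters were not particular to the members. In mirror peaks and in those of spleen alone and lung alone, the CTCF motif was in 0.415%, 0.727% and 2.23%, and GC box letters were in 3.53%, 2.75% and 3.79%. ETS letters were in 24.7%, 8.31% and 9.94% of the same sets, and Forkhead letters in 5.05%, 3.01% and 2.76%.

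In narrow members, TCF/LEF letters were in 3.8% and IRF letters in 9.49%, against 3.92% and 8.04% of all narrow peaks. The palindrome TGATCA was in 54 of 316 narrow members (17.1%), in 23 of 381 broad members (6.04%), in 5.96% of all narrow peaks and in 4.13% of all peaks. It was counted because it was seen, so the share is a description only. The median GC content of the central 200 bases was 44% in narrow and 47% in broad members, against 46% in all narrow peaks, 50.5% in all broad peaks, 52% in peaks past the floor, and 46%, 47% and 48% in the peaks of spleen alone, of lung alone and of the mirror rule. More than 50% of the window was soft-masked repeat in 8.54% of narrow and 4.99% of broad members, beside 10.0% of all narrow and 5.15% of all broad peaks. Introns held 203 broad members (53.3%) and 132 narrow ones (41.8%), and 122 (32%) and 145 (45.9%) were intergenic. Of all broad peaks 44.1% were in introns and 34.2% intergenic, and of all narrow peaks 44.1% and 42.6%.

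**Figure D5:**
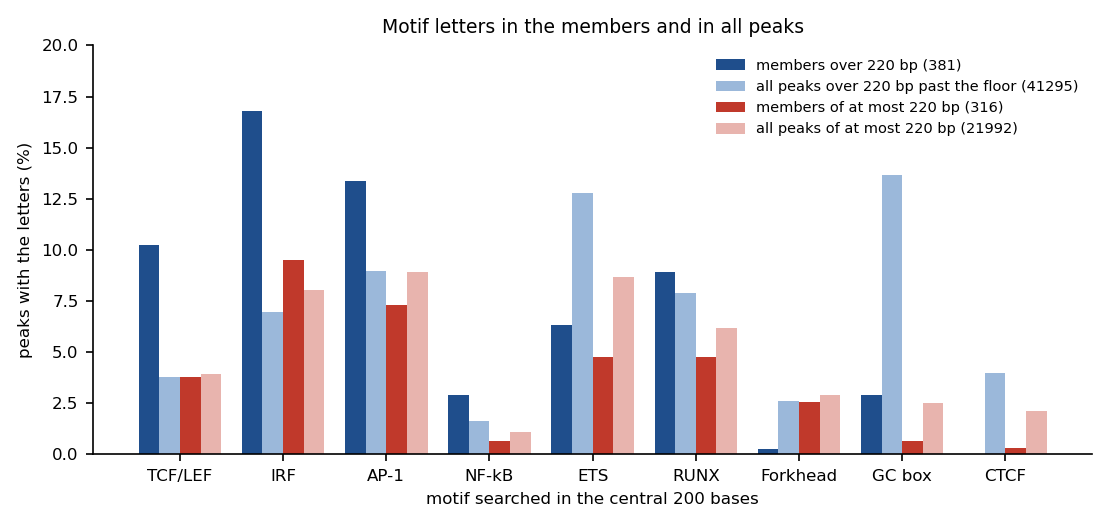
Share of peaks whose central 200 bases hold the letters of 9 of the 20 motifs, for broad members, all broad peaks past the floor, narrow members and all narrow peaks. TCF/LEF and IRF letters were in 10.2% and 16.8% of broad members, while ETS, GC box and CTCF letters were in smaller shares of them than of the broad peaks past the floor.

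The rule was also applied to 1 tissue and the other tissue was tested. Of the 2623 peaks chosen in spleen, 155 (5.91%) were called higher in deficient lung, where 1.22% of all tested peaks were, and 89% had a positive log2 fold change, against 51.8% of all peaks. Of the 6130 chosen in lung, 133 (2.17%) were called higher in deficient spleen, where 0.441% of all tested peaks were, and 88% had a positive sign, against 56.5%. By class, 9.14% of the broad and 2.39% of the narrow peaks chosen in spleen were called in lung, beside 1.4% of all broad and 0.704% of all narrow peaks. Of those chosen in lung, 1.67% of the broad and 2.99% of the narrow peaks were called in spleen, beside 0.23% and 1.16%. The sign differed by class too. In lung, 80.4% of the broad and 98.3% of the narrow peaks chosen in spleen were positive, beside 45.1% and 73.2% of all. In spleen, 82.7% and 96.8% of those chosen in lung were positive, beside 49.7% and 78.2%. The counts of called peaks turned on the fit. With each tissue fitted alone, 0.689% of the peaks chosen in spleen were called in lung (0.153% of all tested) and 5.31% of those chosen in lung were called in spleen (1.45%). With the replicate number as a block the shares were 2.33% (0.476%) and 0.0979% (0.0257%). They turned on single libraries as well. Without lung control 1 the shares were 35.8% (5.18% of all tested) and 6.89% (1.19%), and without spleen control 1 the share chosen in lung and called in spleen was 0.0489% (0.0175%).

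The number of members itself rested on the lung controls. Without lung control 1, 1591 peaks met the rule, and without lung control 2 only 465, of which 63 were narrow.

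Members just inside the rule lay near Lrch1 and Prnd, at smaller ratios of 1.5003 and 1.5007, and near Zfp36l2 and Rasgrp1, at a smaller deficient mean of 3.0002 CPM. Just outside were a peak near Sesn3, at 1.4996, and peaks near Ssbp2 and Gm4301, at 2.99 CPM. In the Bcl2 and Ddx18 members the lowest deficient library was above the highest control by 8.84e-05 and 0.000339 CPM, and peaks near Eef1e1 and Itm2b had gaps of -0.00438 and -0.00552 CPM. All but the ratio was met by 2369 peaks, of which 1210 reached 1.3, all but the floor by 1997, and all but the separation of libraries by 227.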

How the data were processed

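Nucleosome-free ATAC-seq fragments of 10 Treg libraries had been summarised before deposition. Per the study's methods, the authors trimmed reads, aligned them with BWA, removed duplicates with Picard, shifted ends for Tn5, called peaks with MACS2 in each sample, kept those in at least 50% of replicates, merged them and counted reads with bedtools. The deposited values are raw counts per peak and library, mostly even (91.5% to 96.5%). The methods name an older build, but the submitters' processing notes list GRCm38, on which 50.2% of 52063 protein-coding starts lay in a peak (2.17% after a 1 Mb shift). GENCODE M21 and RefSeq GRCm38.p6 were therefore used.

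CPM were taken from column totals. Counts were filtered (filterByExpr), TMM-scaled and fitted with edgeR 4.0.16 quasi-likelihood models (R 4.3.3; 4 groups, or tissue and genotype), with Benjamini-Hochberg adjustment over 97109 peaks; all 697 members passed the filter. DESeq2 1.42.0 was an alternative. Only the edgeR fit of lung against spleen was tested on simulated counts, which lacked the shared profile of narrow peaks. Libraries of a group were distinct (on halved counts, chi-square divided by its degrees of freedom was 1.4 to 2.89). Between libraries of the same replicate number the correlation of deviations was -0.0913 to -0.0144 across genotypes. Across tissues it was -0.0498 to 0.0169, and -0.0515 to 0.108 over broad peaks. With so few libraries per group these values cannot decide whether libraries were paired.

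The members, gene lists, marker lists and motifs were chosen with earlier results of these data known. Peaks named in the text were the 10 members with the largest smaller log2 ratio (pseudocount 0.5), the 6 highest at promoters, the 4 with the highest mean, members of the 8 genes with most members, and up to 4 per list. Also named were the 3 called higher and the 3 called lower in lung with the smallest p, and peaks beside each threshold. Others are named as chosen for their values. A few peaks that this rule names are not reported here.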

Additional observations from a re-analysis of the deposited data

Results flagged for a closer look

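In 3 of 66 sets of the 4 deficient spleen libraries examined, 1 library lay apart from the other 3 by Dixon's criterion, and chance gives about 5% of sets. The gap divided by the range was 0.953 at the Mbnl2 peak of chr14:120372659-120373338, where deficient spleen 1 had 5.01 CPM and the others 3.67, 3.7 and 3.73. It was 0.953 at the Foxo1 peak, where deficient spleen 3 had 5.82 CPM and the others 3.48, 3.55 and 3.59. At the Nfatc2 peak it was 0.911, with deficient spleen 2 at 3.79 CPM and the others at 4.78, 4.87 and 4.88. Each of the 3 peaks met the rule by group means and in every deficient library.

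Outside chromosomes 1 to 19, which the rule left out, 26 of 2899 peaks met its other conditions, all on chromosome X. Of the 2 sets of libraries told apart by chromosome Y counts, each group held both kinds.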

How the results depend on the processing

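The number of peaks that met the rule was 697, and 626, 679 and 1002 with TMM, median-of-ratios and broad-peak scaling. It was 1975 and 330 with floors of 1 and 5 CPM, 1907 and 30 with ratios of 1.3 and 2, 381 with narrow peaks left out, and 465 to 1591 without each library in turn. DESeq2 called 345 members higher and 88 lower in lung. Leaving out each library gave 342 to 346 higher and 68 to 98 lower over all cells, 178 to 333 and 28 to 67 in control cells, and 321 to 346 and 18 to 56 in deficient cells. Above a log2 fold change of 1, 23 members were lower in lung, 19 in deficient cells, and 54 were higher in deficient spleen.

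No label ties replicate numbers to animals. Same-numbered spleen and lung libraries of a genotype were alike in chromosome Y counts in all 4 cases, and the correlation of their deviations was -0.0498 to 0.0169 (-0.0515 to 0.108 over broad peaks). Whether they share mice is not known. With the replicate block 22 members were lower in lung in deficient cells, beside 1.76% of all tested peaks. In deficient spleen and lung 5 and 58 were higher, beside 0.0257% and 0.476% of all tested peaks. The shares chosen in 1 tissue and called in the other became 2.33% (lung) and 0.0979% (spleen) with the replicate block, and 0.689% and 5.31% with each tissue fitted alone. Left-out libraries gave 2.1% to 35.8% and 0.0489% to 6.89%, with the highest of both without lung control 1. They gave 2 to 226 members called in deficient spleen and 49 to 406 in deficient lung. The share of all tested peaks called also changed with the library left out. These contrasts chose the members as well, so nothing is read from those counts. The members' median log2 fold changes were 0.68 to 0.78 in spleen and 0.64 to 1.14 in lung.

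The fits on halved counts, on peaks over 220 bp and with the narrow-peak share of a library as covariate were chosen after seeing the data, as was the left-out width class. With that covariate 0 members were higher in lung in all, in control and in deficient cells, beside 0.0834%, 0.341% and 0.0371% of all peaks. In the same order 3, 7 and 1 were lower, beside 0.033%, 0.108% and 0.0185%. At an unadjusted p below 0.05 there were 22, 19 and 18 higher (3.16%, 2.73% and 2.58%), beside 4.38%, 5.86% and 3.45%. That fit called 8 and 33 members higher in deficient spleen and lung, with median log2 fold changes of 0.53 and 0.52. These contrasts chose the members and no share of all peaks is given, so nothing is read from those counts. The narrow members' median fell, to 0.30 (0.80 without the covariate) in spleen and 0.22 (0.70) in lung, while that of the broad members was 0.74 (0.72) and 0.90 (0.88). Among named peaks the tissue difference turned at 3. It was 0.10 at the Slc39a11 peak of chr11:113382631-113383552 and -0.23 at the Cdkn2c peak with the covariate (edgeR adjusted p = 0.985 and 0.963), and -0.40 at the narrow Trib2 peak of chr12:15276202-15276413 with GC offsets. In all, 1128 values at named peaks kept sign and call, 46 lost the call, 32 of them with the covariate, and 6 gained it. Within 500 bp, 2.3% of members lay at a promoter. Of the other values of the main results, 206 stayed within 1.5 times the main count or within its spread, and 56 did not. With 2 libraries in 3 of the groups, 1 library decides many of these counts, and 1 CPM stood for 9.41 counts in the shallowest.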
